A study of Mus musculus with 18 samples.

Results

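Kdm1a and 7 genes whose proteins work with it in repression by Snail-family factors were followed across ERBB2-driven mammary tumours of mice that had or lacked Snai2. The members were Kdm1a, Rcor1, Rcor3, Phf21a, Hmg20b, Hdac1, Hdac2 and Rbbp4, 8 of 19938 genes measured. Each was taken by its symbol in the platform annotation, from probe sets assigned to 1 gene, with the brightest probe set kept. The set was chosen because Kdm1a was lower in parous than in nulliparous WT tumours, so the members' values in that contrast are given below as a description with no test.

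The tumours came from mice carrying the ErbB2 proto-oncogene of the FVB/N-Tg(MMTVneu)202Mul/J line, which the mouse mammary tumour virus promoter drives mainly in mammary epithelium. Snai2-deficient mice (KO) carried the B6;129S1-Snai2tm2Grid/J allele, and WT mice had intact Snai2. The parental lines differ in strain, and the strain mixture and age of each mouse are not given in the sources used here. Mice had borne litters (parous) or not (nulliparous) and had or lacked metastasis. RNA was hybridised to 18 arrays, 10 of KO and 8 of WT tumours, in 6 groups. KO tumours came from parous mice with metastasis (3 arrays), parous mice without metastasis (3), a nulliparous mouse with metastasis (1) and nulliparous mice without metastasis (3). WT tumours came from parous (4) and nulliparous (4) mice, all with metastasis, so every contrast of WT with KO mice without metastasis also differs in metastasis.

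Snail proteins bind E-box sequences in promoters of epithelial genes and carry a short N-terminal SNAG domain that resembles a histone tail and docks on the demethylase Kdm1a (LSD1). Kdm1a removes methyl groups from histone tails at active promoters, the CoREST scaffolds Rcor1 and Rcor3 hold it to nucleosomes, and the deacetylases Hdac1 and Hdac2 in the same complex strip acetyl groups. In mammary epithelium such complexes are known for silencing adhesion genes such as Cdh1 during epithelial-mesenchymal transition, and the same enzymes also serve repressors that do not belong to the Snail family.

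The promoters of Kdm1a and Rbbp4 are shown because these were the 2 members whose WT parous and nulliparous samples did not overlap. Each line gives the 250 bases before the RefSeq start site, from assembly GRCm38.p6, on the strand of the gene. Kdm1a lies on the minus strand with this stretch at chr4:136602724-136602973, and Rbbp4 on the minus strand at chr4:129335371-129335620. Capitals mark matches, on either strand, to the CCAAT box (CCAAT), the GC box (GGGCGG) and an E2F-type core (TTNGCGC).
Kdm1a: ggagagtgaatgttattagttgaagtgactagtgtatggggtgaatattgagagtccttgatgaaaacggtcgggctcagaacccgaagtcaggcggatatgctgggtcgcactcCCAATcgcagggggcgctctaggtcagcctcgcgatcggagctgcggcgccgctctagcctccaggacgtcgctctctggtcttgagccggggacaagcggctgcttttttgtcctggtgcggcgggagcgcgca
Rbbp4: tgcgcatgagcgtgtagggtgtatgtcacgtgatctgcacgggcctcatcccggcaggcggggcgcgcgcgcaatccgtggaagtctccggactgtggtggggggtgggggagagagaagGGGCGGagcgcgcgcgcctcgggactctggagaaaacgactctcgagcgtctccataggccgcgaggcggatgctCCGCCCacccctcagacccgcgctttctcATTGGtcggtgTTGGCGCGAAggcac

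The Kdm1a promoter held 1 CCAAT box, whose first base lay at -135 from the start site, and no GC box. The Rbbp4 promoter held a CCAAT box at -26, GC boxes at -130 and -55, and E2F-type cores at -15 and -12 that overlap on opposite strands. Among 32851 mouse promoters of this length, 33.8% held a CCAAT box, 32.7% a GC box and 5.19% an E2F-type core. GC content was 59.2% in Kdm1a and 67.6% in Rbbp4, against a median of 52.4% over all promoters. The E-box bound by Snail proteins (CACCTG) had 0 matches in the 7 members with a RefSeq promoter entry, against 17.2% of all promoters with at least 1. Each match or lack of one describes these letters in this window alone. Hdac1 was not among the entries matched.

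Among KO parous mice with metastasis, the arrays of replicates 2 and 3 were almost the same: over 10252 bright genes the SD of their difference was 0.102 on the log2 scale, against 0.285 for the next closest of 153 pairs and 0.705 for the widest. Their mean was used as 1 sample, which left 17 samples and 2 in that group. The labels call the tumours luminal. The 10 luminal markers, among them Epcam and Krt8, had a mean log2 level of 11.52 to 12.04 over all samples, and 8 basal markers lay between 7.28 and 8.33. Snai2 was dim in every group, with group means of 6.38 to 6.59 in KO and 6.83 and 6.86 in WT tumours, and its difference in the additive fit was -0.32 (SE 0.12, limma adjusted p = 0.999). It is not known here if the probe set covers the deleted stretch. These are bulk tumours, so fewer cells of a type and less RNA per cell cannot be told apart.

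Kdm1a, the demethylase, had its highest values in nulliparous tumours with metastasis. In WT nulliparous tumours its log2 values were 10.43, 10.53, 10.27 and 10.57, a mean of 10.45 ± 0.13 (SD, n = 4). In WT parous tumours they were 9.73, 9.48, 9.67 and 9.65, a mean of 9.63 ± 0.11 (SD, n = 4). The lowest nulliparous sample lay above the highest parous one, a gap wider than the spread within either group. The parous minus nulliparous difference was -0.82 (SE 0.09), a level 1.76-fold lower in parous tumours. It ran from -0.88 to -0.76 over 16 alternatives, sample by sample removal included.

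KO tumours, which took no part in choosing Kdm1a, gave a different spread of values. The KO nulliparous tumour with metastasis stood at 10.21. KO nulliparous tumours without metastasis had 9.82, 9.64 and 9.97, and KO parous tumours without metastasis had 9.86, 9.75 and 9.67. Values of these 2 groups overlapped. KO parous tumours with metastasis had 9.61 and 9.61. The 5 nulliparous tumours with metastasis, KO and WT, thus lay between 10.21 and 10.57, and the 12 other samples between 9.48 and 9.97, with no overlap. The 8 WT samples among these chose Kdm1a, and the share of all genes with this split was not counted. The median deviation of the 40 genes around Kdm1a, described below, was also higher in those 5 (0.23 to 0.38) than in any other sample (up to 0.22). In order of mean, WT nulliparous tumours and then the lone KO nulliparous tumour with metastasis were each apart from the next group. The 4 groups below them, from 9.81 ± 0.16 (SD, n = 3) in KO nulliparous tumours without metastasis down to 9.61 in KO parous tumours with metastasis, overlapped their neighbours in that order. The lone tumour allows no estimate of spread within its group.

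**Figure D1:**
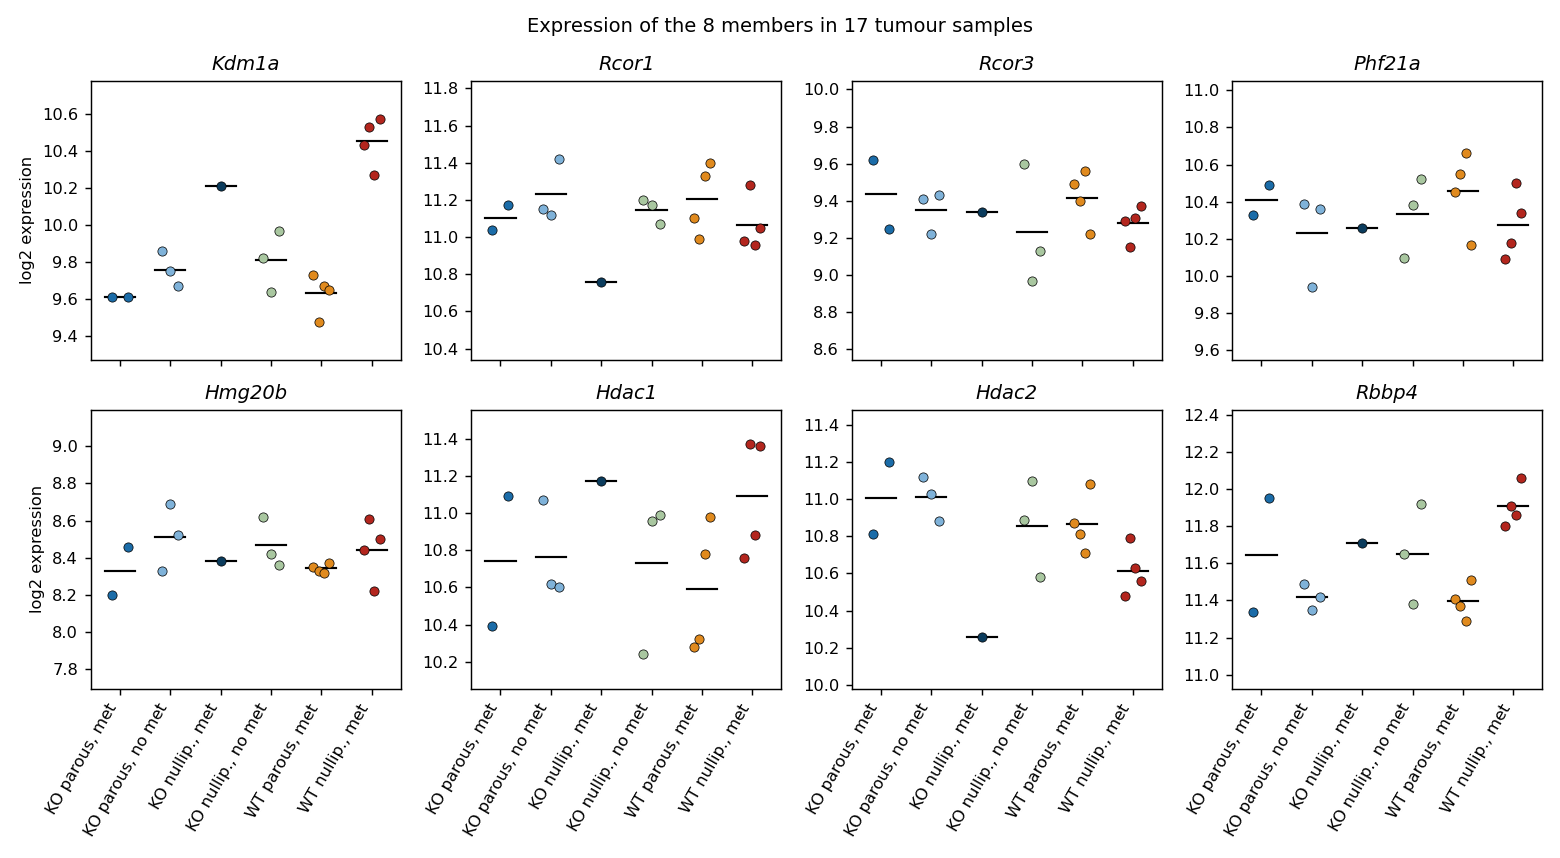
Log2 expression of the 8 members (vertical axes, each spanning the same log2 width) in 17 tumour samples of 6 groups; points are samples and lines are group means, with met and no met for mice with and without metastasis. Kdm1a lies at 10.21 to 10.57 in the 5 nulliparous tumours with metastasis and at 9.48 to 9.97 in all others, while Hdac1 spreads widely inside most groups. The WT samples chose Kdm1a, and the share of all genes split in this way was not counted.

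Kdm1a differed between groups more than it varied within them. This is a description, since the WT difference that chose Kdm1a adds to the spread between groups. Its SD over the 17 samples was 0.35 on the log2 scale, larger than that of 85.6% of genes, while its SD within groups was 0.12, larger than that of only 36.1%. The medians over all genes were 0.17 and 0.15. Hdac1 had nearly the same SD over samples, 0.36, but 0.36 within groups as well, larger than 88.1% of genes. Rbbp4 and Hdac2 stood between, at 0.26 and 0.25 over samples and 0.19 and 0.18 within groups. Phf21a, Rcor3, Rcor1 and Hmg20b had SDs of 0.19, 0.18, 0.17 and 0.14 over samples, close to the median gene.

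Of the scaffolds, Rcor1, which couples Kdm1a to the deacetylases, had overlapping values in all groups but 1. WT parous tumours lay between 10.99 and 11.40 and WT nulliparous tumours between 10.96 and 11.28. The lone KO nulliparous tumour with metastasis had the lowest value of all, 10.76, below the 16 others. The share of all genes that were lowest in this 1 tumour was not counted. Rcor3, a paralogue of Rcor1, lay between 8.97 and 9.62, and no group was apart from the next in order. The WT parous minus nulliparous differences were 0.14 (SE 0.10) for Rcor1 and 0.14 (SE 0.13) for Rcor3.

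Phf21a, a reader of unmethylated histone tails in the complex, lay between 9.94 and 10.66, and both extremes were parous tumours. Hmg20b, a DNA-binding subunit of the HMG-box kind, had the narrowest range of the members, 8.20 to 8.69. Its 4 WT parous samples lay within 8.32 to 8.37, a mean of 8.34 ± 0.02 (SD, n = 4), inside the nulliparous range of 8.22 to 8.61. WT parous minus nulliparous differences were 0.18 (SE 0.14) for Phf21a and -0.10 (SE 0.10) for Hmg20b.

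The 2 deacetylases had WT parity differences of opposite sign. Hdac1 had 10.76, 11.37, 10.88 and 11.36 in WT nulliparous and 10.28, 10.32, 10.78 and 10.98 in WT parous tumours. The 2 groups overlapped, with replicates 3 and 4 of the parous group above the lowest nulliparous sample. The difference was -0.50 (SE 0.24), parous minus nulliparous. Hdac1 was read by 2 probe sets; the kept one had a mean of 10.83 and the other, at 10.62, ran from 9.97 in KO nulliparous replicate 1 without metastasis to 11.19 in WT nulliparous replicate 4. The kept one was also lowest in that KO tumour, at 10.24.

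Hdac2, its close paralogue, had 10.48, 10.79, 10.63 and 10.56 in WT nulliparous tumours. In WT parous tumours it had 10.87, 10.81, 10.71 and 11.08. Parous values were mostly the higher ones here, but the groups overlapped, and the difference was 0.25 (SE 0.12). As for Rcor1, the KO nulliparous tumour with metastasis had the lowest value, 10.26, apart from the 16 other samples at 10.48 to 11.20. Here too the share of all genes lowest in that tumour was not counted.

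Rbbp4, a histone-binding WD-repeat protein shared by deacetylase and Polycomb complexes, was the other member whose WT groups did not overlap. It had 11.80, 11.91, 11.86 and 12.06 in WT nulliparous and 11.41, 11.37, 11.29 and 11.51 in WT parous tumours, a difference of -0.51 (SE 0.13). Among KO tumours the averaged pair of the parous group with metastasis (11.95) and replicate 3 of the nulliparous group without metastasis (11.92) reached the WT nulliparous range. The 5 nulliparous tumours with metastasis (11.71 to 12.06) therefore overlapped the 12 others (11.29 to 11.95), unlike those of Kdm1a.

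In the WT parity contrast, 2 of 8 members had all parous samples below all nulliparous ones, where 7.63% of all genes did. The opposite arrangement held for 0 of 8 members and 4.98% of genes. Over all genes limma called 478 at an adjusted p under 0.05, 2.4% of those tested (108 higher and 370 lower in parous tumours), with Kdm1a among them by the way it was chosen. Nothing is read from these shares. All 8 differences kept their sign in 16 of 16 alternatives.

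**Figure D2:**
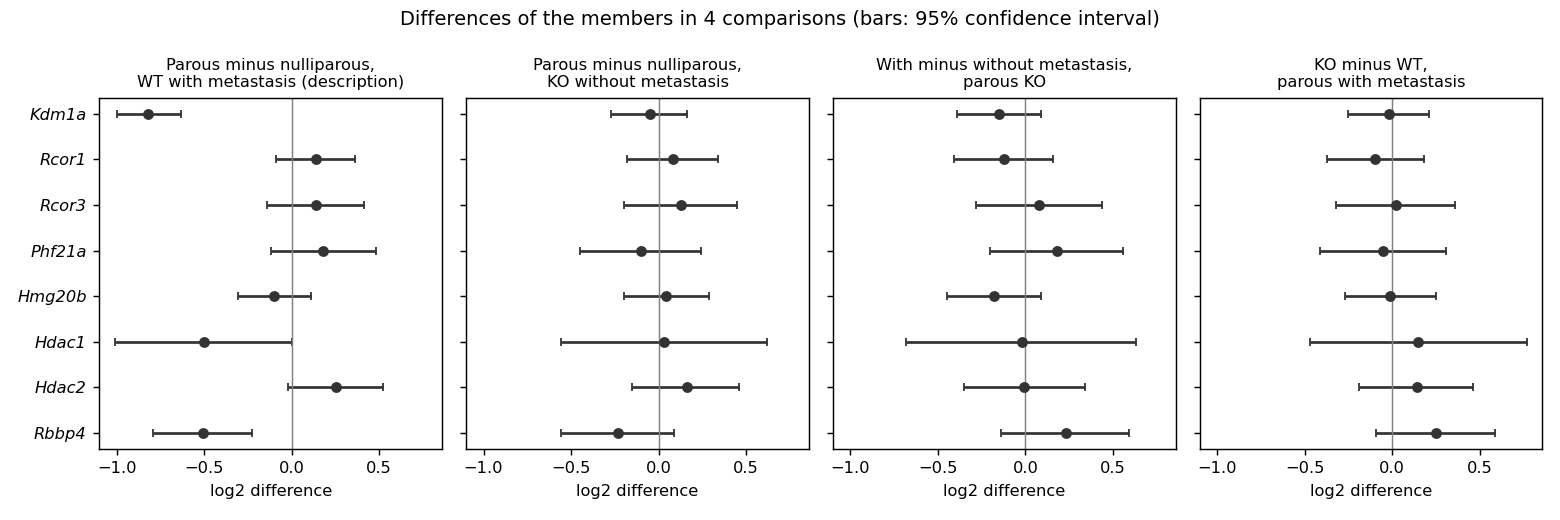
Log2 differences of the 8 members (points) with 95% confidence intervals (bars) in 4 comparisons; the first panel is a description because Kdm1a was chosen on it, as is Kdm1a in the last. Kdm1a stands at -0.82 in the WT parity contrast and at -0.05 in the KO one, and every interval in the 3 panels on the right includes 0.

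The same parity contrast in KO mice without metastasis compared tumours that took no part in choosing Kdm1a, and no member passed. Its standard errors pool the spread of all groups, the WT arrays included. Kdm1a differed by -0.05 (SE 0.10, 95% interval -0.27 to 0.16, limma adjusted p = 1). Rbbp4 stood at -0.23 (SE 0.15, interval -0.56 to 0.09, limma adjusted p = 1), and at -0.37 and -0.10 without nulliparous replicates 2 and 3. Hdac1, at 0.03, had an interval from -0.56 to 0.62. The other 5 lay between -0.10 for Phf21a and 0.16 for Hdac2. Over all genes limma called 0, with 655 at an unadjusted p under 0.05, so the share called was 0%.

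The KO and WT parity contrasts differed by 0.77 for Kdm1a (SE 0.13), 0.53 for Hdac1 (SE 0.36), 0.28 for Rbbp4 (SE 0.20) and -0.29 for Phf21a (SE 0.21), KO minus WT. The WT contrast within that difference chose Kdm1a, so it is a description with no test. For Kdm1a it ran from 0.68 to 0.85 over 22 alternatives. Genotype and metastasis both differ between these contrasts and cannot be told apart. Over all genes limma called 0 (0%), with 1922 at an unadjusted p under 0.05.

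Metastasis in parous KO mice went with no passing change in any member. Kdm1a differed by -0.15 (SE 0.11, interval -0.39 to 0.09, limma adjusted p = 0.967), with minus without metastasis. Its 2 samples with metastasis (9.61 and 9.61) lay below the 3 without (9.67 to 9.86), but 1 of the 2 averages arrays at 9.66 and 9.57. Over all genes 61.1% of differences lay below 0, and the share with such an order was not counted. Rbbp4 differed by 0.23 (SE 0.17, limma adjusted p = 0.967), and this rested on the averaged pair: over samples left out in turn it ran from -0.08 to 0.53, the lowest without that pair. Hmg20b stood at -0.18 (SE 0.13) and ran from -0.31 without the pair to -0.05 without the other sample with metastasis. Hdac1 stood at -0.02 (SE 0.30, interval -0.68 to 0.63) and went from -0.38 to 0.33 in the same way. Over all genes limma called 0 (0%), with 805 at an unadjusted p under 0.05.

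The loss of Snai2, compared among parous mice with metastasis, likewise left no member past the threshold. Kdm1a was nearly level, at -0.02 (SE 0.11, interval -0.25 to 0.21), KO minus WT, a description because its WT arrays chose it. Rbbp4 stood at 0.25 (SE 0.16, limma adjusted p = 0.926), and ran from -0.06, without the averaged pair, to 0.55 with samples left out. Rcor1 stood at -0.10 (SE 0.13), Hdac2 at 0.14 (SE 0.15) and Hdac1 at 0.15 (SE 0.29). Without the averaged pair Hdac2 and Hdac1 turned to -0.06 and -0.20, and without KO replicate 1 they stood at 0.33 and 0.50. Over all genes limma called 0 (0%), with 1142 at an unadjusted p under 0.05. With all tumours in an additive fit of genotype, parity and metastasis, Rcor1 had the smallest p of the 7 members tested, at -0.17 (SE 0.10, interval -0.38 to 0.04, limma adjusted p = 0.999). Without the lone KO nulliparous tumour with metastasis, where Rcor1 was lowest, it was -0.08. Kdm1a stood at -0.15 (SE 0.15) there, with no test. That fit called 0 genes (0%), with 885 at an unadjusted p under 0.05.

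Kdm1a, Hdac1 and Rbbp4, the 3 members with WT parity differences of -0.82, -0.50 and -0.51, all map to chromosome 4. Rcor1 maps to chromosome 12, Rcor3 to 1, Phf21a to 2, and Hdac2 and Hmg20b to 10. Each member was therefore set beside the 20 measured genes on each side of it, dimmest 40% of genes left out, except that Rcor3 had 30 neighbours in all. Around Kdm1a, 38 of 40 neighbours lay below 0 in the WT parity contrast, with a median of -0.53, and 6 were as low as Kdm1a or lower. The genes next to it were Luzp1 (-0.59), which encodes a leucine zipper protein, and the complement gene C1qb (-0.66), which is also one of the macrophage markers. Kdm1a lay 0.29 below its neighbours' median. Over the 755 measured genes of chromosome 4 outside the dimmest 40%, the median was -0.40. Of these 755 genes, 87.9% lay below 0 and 55 lay at or below Kdm1a. Over all genes 51.7% lay below 0, and 314 of the 11963 genes outside the dimmest 40% lay at or below Kdm1a.

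Hdac1 and Rbbp4 lie close together, with 4 measured genes between them once the dimmest 40% are left out. They shared 34 of 40 neighbours, so they are not independent of each other here. The median of the neighbours was -0.43 for Hdac1 (member -0.50) and -0.42 for Rbbp4 (member -0.51), and 37 of 40 were below 0 around each. Marcksl1 (-0.16) and the translation factor subunit gene Eif3i (-0.84) flank Hdac1, and Sync (-0.08) and Zbtb8os (-0.34) flank Rbbp4. Between Kdm1a and Hdac1 lie 104 genes counted in the same way, and these 2 members had 0 shared neighbours. Phf21a on chromosome 2 went against its surroundings: it stood at 0.18 where 31 of 40 neighbours were below 0 and their median was -0.18. Around Rcor1, Rcor3, Hdac2 and Hmg20b the neighbours' medians were 0.04, 0.04, -0.03 and -0.02.

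**Figure D3:**
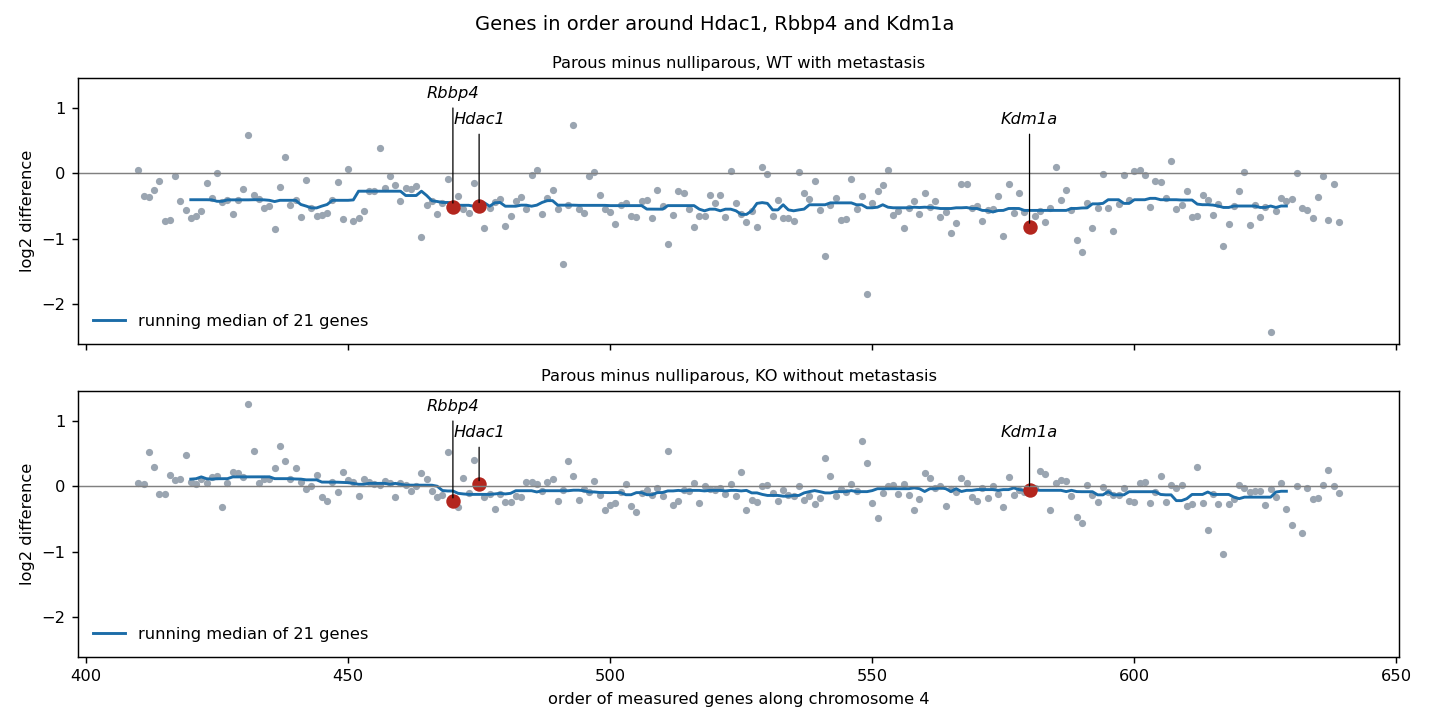
Log2 difference, parous minus nulliparous, of measured genes (points, dimmest 40% left out) by order along chromosome 4, in WT tumours with metastasis (top) and KO tumours without (bottom). The line is a running median of 21 genes and red points are members. In WT tumours nearly all genes around the 3 members lie below 0. In KO tumours 27 of the 40 neighbours of Kdm1a lie below 0, as do 22 of 40 for Hdac1 and 19 of 40 for Rbbp4.

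In the KO parity contrast the neighbours of Kdm1a had a median of -0.07 beside its own -0.05, and those of Hdac1 -0.05 beside 0.03. Of 40 neighbours, 27 lay below 0 around Kdm1a, 22 around Hdac1 and 19 around Rbbp4, against 47.4% of all genes. Rbbp4 stood at -0.23, where the median of its neighbours was 0.02 and 4 of 40 were as low or lower. Whether the shift of the surrounding genes has a part in the members' differences was not tested.

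**Figure D4:**
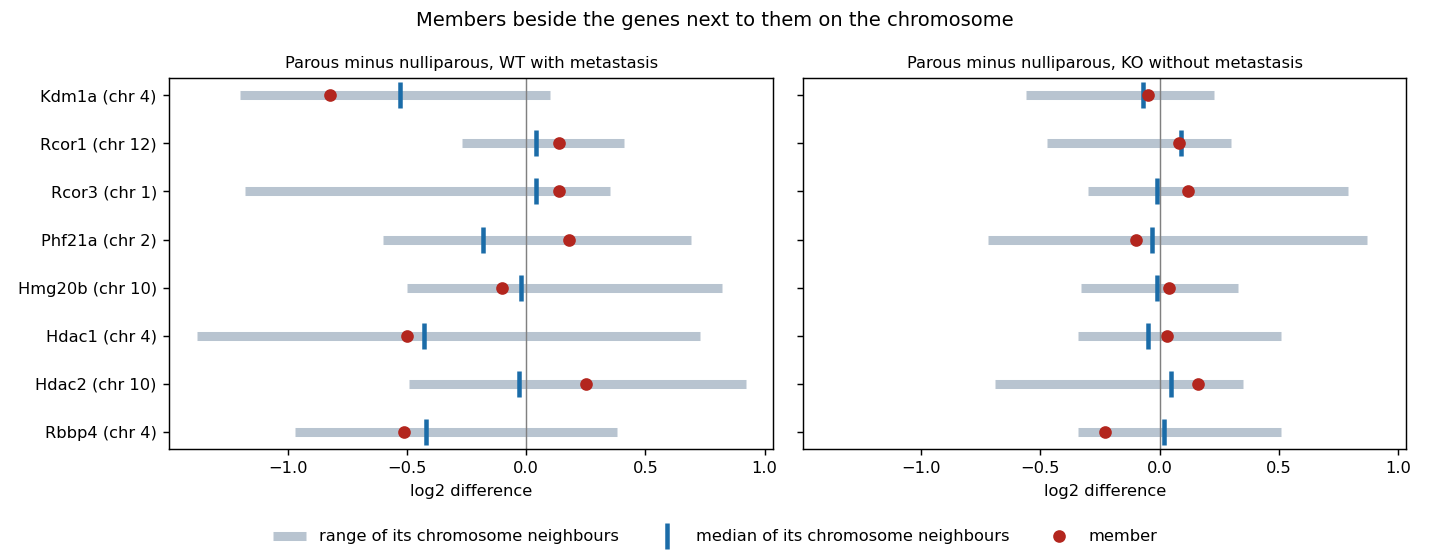
Log2 difference of each member (red point) beside the median (blue bar) and range (grey band) of its chromosome neighbours, for parity in WT tumours with metastasis (left) and KO tumours without (right). The neighbours' medians of Kdm1a, Hdac1 and Rbbp4 are -0.53, -0.43 and -0.42 on the left and -0.07, -0.05 and 0.02 on the right.

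The same comparison was made in each sample, as the median deviation of the 40 neighbours from their means over the 17 samples. Around Kdm1a this level was 0.33, 0.35, 0.25 and 0.38 in WT nulliparous tumours and -0.05, -0.18, -0.26 and -0.12 in WT parous ones. Among KO tumours it was highest in the lone nulliparous tumour with metastasis (0.23) and in replicate 3 of the nulliparous group without metastasis (0.22). These are also the 2 KO samples with the most Kdm1a, 10.21 and 9.97. All other KO samples had neighbourhood levels between -0.34 and -0.02.

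Kdm1a lay apart from the median of its neighbours in the WT groups, which is again a description, since these WT samples chose it. The share of all genes that part from their own neighbours in this way was not counted. The deviation of Kdm1a minus that of the neighbours was 0.21 ± 0.08 (SD, n = 4) in WT nulliparous tumours, with samples from 0.11 to 0.28. In WT parous tumours it was -0.12 ± 0.11 (SD, n = 4), from -0.25 to 0.02. The 2 groups did not overlap on this measure either, and the lone KO nulliparous tumour with metastasis stood between them at 0.07. For Rbbp4 the values were 0.06 ± 0.08 and -0.03 ± 0.09 (SD, n = 4 each), and for Hdac1 0.03 ± 0.23 and -0.05 ± 0.32 (SD, n = 4 each), both overlapping. In the averaged KO pair the neighbourhoods parted: the level was -0.34 around Kdm1a but 0.21 around Hdac1 and 0.16 around Rbbp4, and that sample was low in Kdm1a (9.61) and high in Hdac1 (11.09) and Rbbp4 (11.95).

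**Figure D5:**
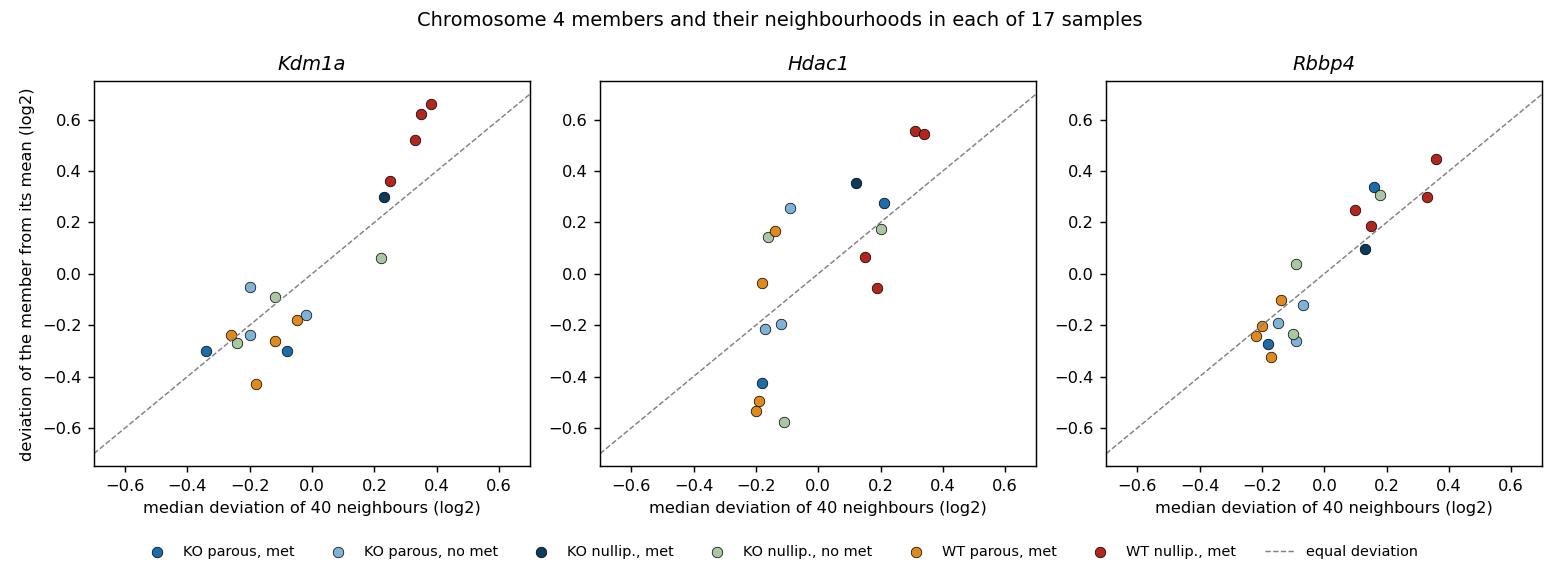
Deviation of each chromosome 4 member from its mean (vertical axis, log2) against the median deviation of its 40 neighbours (horizontal axis, log2) in 17 samples coloured by group; the dashed line marks equal deviation. The 4 WT nulliparous samples lie above the line for Kdm1a, by 0.11 to 0.28, and on both sides of it for Hdac1. The WT samples chose Kdm1a, and the share of all genes placed in this way was not counted.

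The genes whose profiles were closest to Kdm1a over the 17 samples, by root mean square distance of mean-centred log2 values, were Arhgef10l (0.101), Lypla2 (0.107), Fbxo42 (0.110), Kdf1 (0.110) and Dnajc11 (0.122). A flat profile lay at 0.343 and the median gene at 0.366. Lypla2 encodes a thioesterase, Fbxo42 an F-box protein, Kdf1 a keratinocyte differentiation factor and Dnajc11 a mitochondrial J protein. All 5 map to chromosome 4, as did 45 of the closest 50, where that chromosome holds 5.82% of the 19841 placed genes. Over the 9 KO samples alone, 23 of the closest 50 were on chromosome 4, and 4 of the 5 named genes were among them. Of the other members Rbbp4 was the closest, at 0.228 (rank 212), followed by Hdac1 at 0.311 (rank 2095). Rcor3, Rcor1, Phf21a and Hdac2 were farther from Kdm1a than a flat profile, as was the median gene. Their distances were 0.413, 0.429, 0.433 and 0.535, with Hdac2 at rank 17752.

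Other genes of the pathway were read from lists. In the WT parity contrast, 0 of 11 other CoREST and LSD1 genes passed in either direction, with a median of 0.03. None passed among 8 factors that recruit LSD1, such as Gfi1 and Rest (median 0.01), 11 NuRD subunits (-0.04), 13 Sin3 subunits (0.06) or 9 other zinc-dependent deacetylases (0.01). Over all genes the median was -0.005, and 2.4% were called. Of 12 other Snail corepressors, 4 lay below 0, and 1 passed as lower and 0 as higher. The 1 was Ehmt1, a histone methyltransferase on chromosome 2, at -0.50 (SE 0.10, limma adjusted p = 0.0271), against a list median of 0.06.

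Of 17 epithelial genes known as targets of Snail repression, 10 lay below 0, against 51.7% of all genes. As higher 0 of them passed, and 1 passed as lower, against 1.86% of all genes. The 1 was Patj, a polarity scaffold that also maps to chromosome 4, at -0.53 (SE 0.12, limma adjusted p = 0.0385). The median of the 17 was -0.04, and that of 12 mesenchymal genes, with 0 passing, was -0.28. Snai1 and Snai3 passed in no comparison, with WT parity differences of -0.08 (SE 0.18) and -0.07 (SE 0.08). In the other comparisons 0 members of these lists passed by limma, as was the case for all genes.

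The mean levels of interferon response genes and of T and NK cell markers separated the same samples as Kdm1a. The WT samples among these chose Kdm1a, and the share of all genes with this split was not counted. The mean level of 20 interferon response genes was 10.23 to 10.88 in the 5 nulliparous tumours with metastasis and 8.10 to 9.66 in the 12 others. In the WT parity contrast all 20 lay below 0, against 51.7% of all genes, with a median of -1.61. As higher in parous tumours 0 passed, and 13 passed as lower, against 1.86% of all genes. Among the 13 were the interferon signal transducer Stat2 at -1.65 (SE 0.23, limma adjusted p = 0.00707) and the antiviral GTPase gene Mx2 at -2.14 (SE 0.32, limma adjusted p = 0.00898).

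The 10 T and NK cell markers had a mean level of 6.72 to 7.87 in those 5 tumours and 6.30 to 6.67 in the others, also without overlap. The gap was narrow, from 6.67 to 6.72, and the levels in the others were as dim as those of Snai2. Little is therefore read from this split. Nkg7 (-1.48) and Ncr1 (-0.40), both of cytotoxic cells, passed of the 10 markers, and none was higher. Over all genes 1.86% passed as lower. The 7 B and plasma cell markers overlapped, at 7.36 to 8.63 against 7.24 to 7.48, as did 8 adipocyte markers, at 7.58 to 8.70 against 7.24 to 7.80, of which the lipase gene Lipe (-0.70) passed. Fibroblast, endothelial, macrophage and skeletal muscle markers had 0 passing, with medians of -0.69, -0.22, -0.56 and -0.77, and their levels overlapped between the 5 tumours and the rest. Luminal markers (median -0.10) and 19 proliferation genes (median -0.04) had 0 passing as well. The part of any of these in the values of Kdm1a was not tested.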

How the data were processed

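Expression was measured on 18 single-colour arrays. The authors deposited log2 expression values of 35556 probe sets; RMA and oligo are named per the submitters' processing notes, whose versions are not stated there. RMA compresses the changes of dim genes and removes shifts common to all genes. Array medians lay between 7.60 and 7.67; arrays have no depth, and their number limits how precise a value is.

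Of the probe sets, 21789 had 1 gene, 1621 several and 12146 none in the platform annotation. The brightest 1-gene probe set per gene was kept, 19938 genes, of which 19855 matched RefSeq (GRCm38.p6), used for chromosomes, gene order and promoters. The near-identical arrays, replicates 2 and 3 of the KO parous group with metastasis, were averaged.

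Tests used limma 3.58.1 in R 4.3.3 (lmFit, eBayes, 2-sided) on 6 group means, or an additive fit of genotype, parity and metastasis, with Benjamini-Hochberg adjusted p under 0.05 over all genes as the threshold. The contrasts of a group with another group were tested on simulated data. The additive fit and the difference of the parity contrasts were not. P-values measure the spread between tumours, which the labels call biological replicates.

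The members, gene lists and comparisons were chosen with earlier results of these data known. Genes named were the 8 members, Snai1 to Snai3, the 5 genes closest to Kdm1a, the nearest measured gene on each side of Kdm1a, Hdac1 and Rbbp4, and up to 4 passing genes of each list. Epcam, Krt8, Gfi1 and Rest are named as list members with no value, and Cdh1 as background.

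Same-numbered replicates were checked for pairing. Correlations of their deviations ran from -0.14 to 0.07 between WT groups and from -0.31 to -0.06 between KO groups. Differently numbered pairs were not compared, so the check cannot exclude pairing. The main fits did not pair samples.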

Additional observations from a re-analysis of the deposited data

How the results depend on the processing

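For the WT parity contrast, 478 genes were called with all samples. The count was 878 with only the groups compared in the fit. It ran from 57 to 439 with a sample left out: 259, 274, 82 and 85 without WT parous replicates 1 to 4, and 66, 439, 437 and 57 without WT nulliparous replicates 1 to 4. A fit with the replicate number as a block, which also kept the near-identical arrays apart and left out the lone KO nulliparous tumour with metastasis, gave 368 genes for WT parity, 1 for KO against WT in parous mice, 1 for KO against WT over all tumours and 0 for the other 3 comparisons; no member was among the single genes.

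Where the full fits called 0 genes, leaving out a sample gave 0 to 2 for KO parity (2 without KO parous replicate 1 without metastasis, 1 without replicate 3, 1 without nulliparous replicate 2). It gave 0 to 5 for metastasis in KO mice (2 without replicate 1 with metastasis, 5 without the averaged pair). It gave 0 to 17 for KO against WT in parous mice (2 without KO replicate 1, 17 without the pair; the lone KO sample left is assumed to vary like the other groups). It gave 0 to 8 for the difference of the parity contrasts (8 without WT nulliparous replicate 2, 3 and 1 without KO nulliparous replicates 3 and 2, 1 without KO parous replicate 2). No member was among these, and 0 genes were called for KO against WT over all tumours with any sample left out. The causes were not tested.

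Both arrays of the near-identical pair kept apart gave 628 genes for WT parity. Of the 48 member differences, 26 turned sign under at least 1 alternative, all of them of a size up to 0.25 in the full fit. Among these, the metastasis difference in KO mice kept its sign in 8 of 13 alternatives for Hdac1 and 6 of 13 for Hdac2, and KO against WT in parous mice in 8 of 14 for Hmg20b. No tested member passed in any alternative of the KO parity, metastasis and KO against WT comparisons.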
